A study of Mus musculus with 7 samples.

Results

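The comparison described here set 2 arrays of Dll1 GFP high cells with high surface CD24 against 1 array of Lgr5 GFP high cells, chosen by their sample titles, 3 arrays of 7 in all. Both CD24 high samples came from Dll1-EGFP-ires-CreERT2 mice, in which the Dll1 promoter drives GFP, and were sorted by flow cytometry for high GFP and high CD24. The Lgr5 sample came from Lgr5-EGFP-ires-CreERT2 mice, in which the Lgr5 promoter drives GFP, and was sorted for high GFP alone, with no gate on CD24 named. All mice carried an EGFP-ires-CreERT2 cassette, no treatment is named, and the animals' age and the number pooled per sort are not given in the sources used here. The other arrays held Dll1 GFP high cells with medium or low CD24, in 2 replicates each. The replicates of the Dll1 groups were labelled as biological replicates. Sample RNA was labelled with Cy3 and a common reference, RNA of whole small intestine, with Cy5, so a level is given as log2 of sample over reference, and a difference as CD24 high minus Lgr5 on that log2 scale.

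Paneth cells sit at the base of the small intestinal crypt, wedged between the Lgr5 stem cells, and carry large granules filled with antimicrobial peptides such as defensins and lysozyme. They also make Wnt, Notch and EGF receptor ligands that stem cells respond to, and they do not divide. Lgr5 is a receptor for R-spondins and the defining marker of the cycling crypt base columnar stem cells. Dll1 is a Notch ligand of cells that enter the secretory lineages, which besides Paneth cells comprise goblet, enteroendocrine and tuft cells, and CD24 is a surface glycoprotein high on Paneth cells.

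Median signals of the 7 arrays were 77.6 to 107.5 for the samples and 300.3 to 325.7 for the reference, and 0 sample spots were saturated. Sample signal was well above background on 44.4 and 42.5% of spots in the CD24 high arrays and on 52.8% in the Lgr5 array. Over genes, the log2 ratios of the CD24 high arrays correlated with each other at r = 0.91, and with the Lgr5 array at 0.41 and 0.33, a description across genes that share the reference. The Lgr5 sample had no replicate, so the error of each difference takes its spread from the replicates of the Dll1 groups. The spread of Lgr5 was assumed to be like theirs. CD24 high replicate 1 lay on the same slide as the Lgr5 array and replicate 2 on another, and the value of replicate 1 minus Lgr5 is therefore free of the slide.

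A gene was called where limma's moderated test, fitted over all 7 arrays and adjusted by Benjamini and Hochberg, gave an adjusted p under 0.05 and both CD24 high arrays lay on the same side of the Lgr5 array. The condition on sides removed 0 genes, so the calls rest on the moderated test alone. Of 17481 genes tested, 6266 were called, which is 35.8%. CD24 high cells were higher for 3707 of them, 21.2% of the genes tested, and lower for 2559, 14.6%. At 4-fold or more, 984 genes were higher and 286 lower. The median difference over all genes was 0.10. With the deposited series matrix, 3216 genes were higher and 4028 lower, and with the sample channel alone 2581 and 3693, so the share of higher calls was 59.2% as fitted and 44.4% and 41.1% in these settings, which moved the median of all genes by -0.25 and -0.14. Differences and counts of calls below are read against these backgrounds, 21.2% called higher and 14.6% lower, also where they are not repeated. In sorted cells measured in bulk, fewer cells of a type and less RNA per cell cannot be told apart. Mouse line, sort and cell type cannot be told apart either, in any CD24 high minus Lgr5 difference given here.

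**Figure D1:**
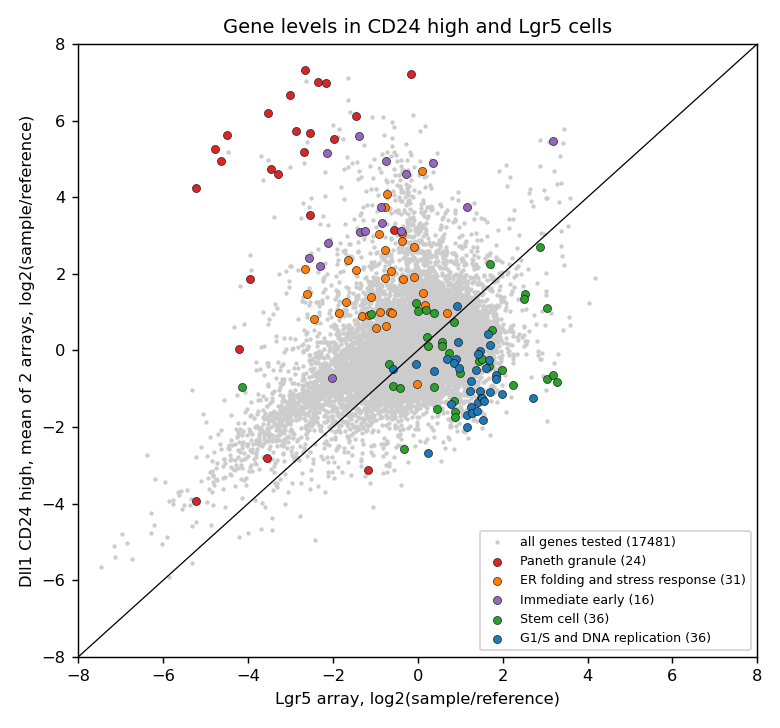
Levels of 17481 genes as log2 of sample over reference, in the Lgr5 array (x axis) and as the mean of the 2 CD24 high arrays (y axis), with genes of 5 lists coloured and the line of equal levels. Most of the 24 Paneth granule genes lie far above the line, 1 lies below it, and G1/S and DNA replication genes (36) mostly below it.

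**Figure D2:**
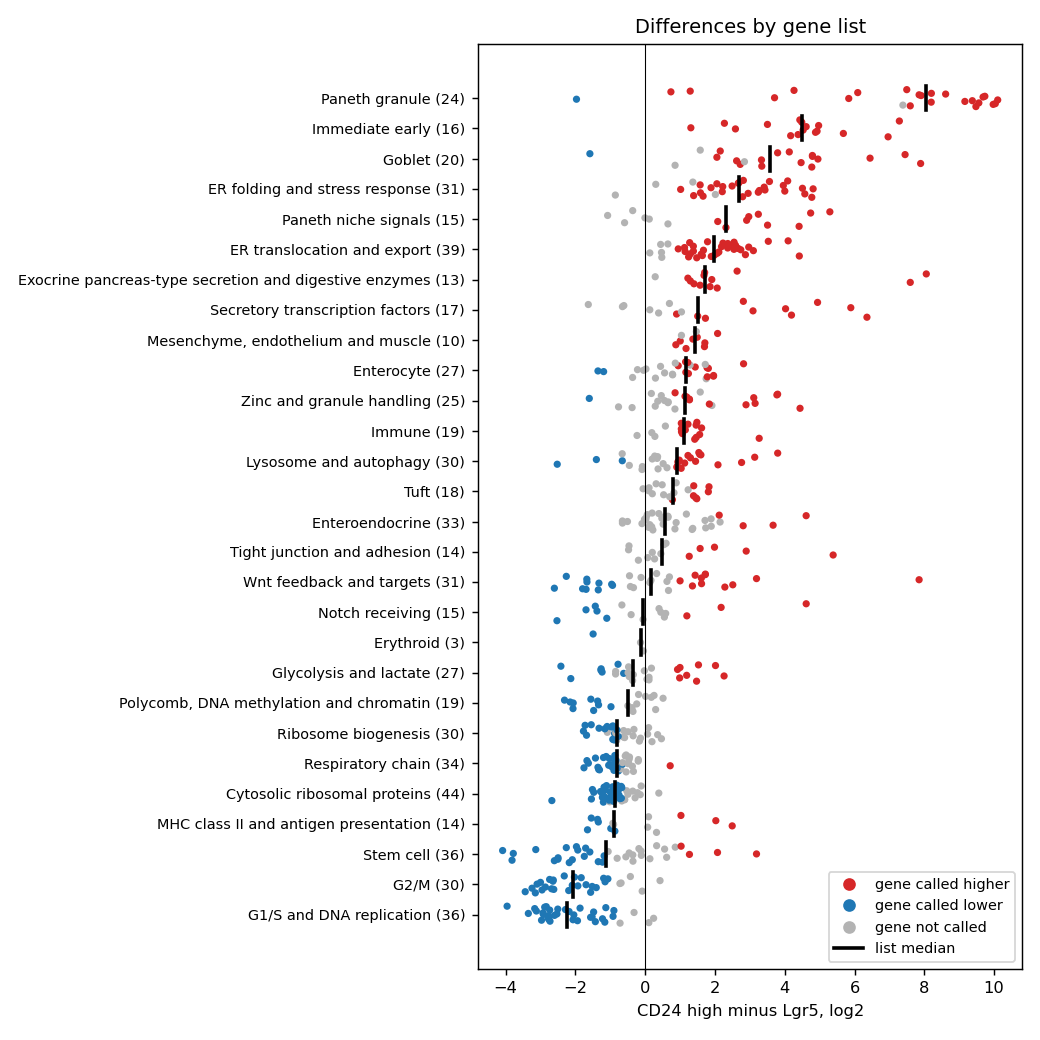
CD24 high minus Lgr5, in log2, for each measured gene of 28 lists, with the number measured in brackets. Points are genes, red where called higher in CD24 high cells, blue where called lower and grey where not called, and each bar is the median of its list. The list medians run from 8.05 for Paneth granule genes to -2.23 for G1/S and DNA replication genes.

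The genes used for sorting are given as a check of the labels and support nothing. Cd24a read 3.34 and 3.47 in the CD24 high arrays and -0.11 in the Lgr5 array, and 0.88, 0.75, -0.68 and -0.59 in the CD24 medium and CD24 low arrays. Lgr5 itself read 1.36 and 1.31 in the CD24 high arrays and 2.51 in the Lgr5 array, a difference of -1.18 (SE 0.24, adjusted p = 0.011). In the CD24 medium and low arrays it read -0.66, -0.54, -1.23 and -0.75, so Lgr5 RNA in the CD24 high cells lay between the stem cells and the other Dll1 cells. Dll1 read 0.61 and -0.04 in the CD24 high arrays and 0.88 in the Lgr5 array, a difference of -0.59 (SE 0.30, adjusted p = 0.17) that did not pass the test, although without CD24 high replicate 1 it was -0.92 (adjusted p = 0.040). In the CD24 medium and low arrays Dll1 read 2.81, 2.53, 2.56 and 2.52, and CD24 high cells lay below these 4 arrays by 2.33 (adjusted p = 0.00077). The cells sorted for high Dll1 GFP and high CD24 thus read less Dll1 RNA than the other Dll1 cells, whatever the comparison with Lgr5 cells.

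Genes of Paneth granules differed most. Of 33 listed genes 24 were measured, and 22 were called higher in CD24 high cells, 1 was called lower and 1 was not called, with a median difference of 8.05 beside 0.10 over all genes. With the sample channel alone the median was 5.42, and 20 genes were called higher and 1 lower. The median level of the list was 5.13 and 5.30 in the CD24 high arrays and -2.94 in the Lgr5 array, and -2.69 to 0.08 in the CD24 medium and low arrays. Lyz1, the lysozyme of Paneth cells, read 6.17 and 6.23 in the CD24 high arrays and -3.53 in the Lgr5 array, a mean of 6.20 ± 0.04 (SD, n = 2) and a difference of 9.73 (SE 0.34, adjusted p = 3.2e-05), 852-fold. The CD24 high replicates lay within 0.1 of each other on this gene and far from the Lgr5 array. Mmp7, the protease that activates prodefensins in mouse, read 5.13 and 5.22 in the CD24 high arrays and -2.68 in the Lgr5 array, a difference of 7.85 (SE 0.18, adjusted p = 1.3e-05). Itln1, a lectin that binds microbial glycans, read 6.63 and 6.71 in the CD24 high arrays and -3.01 in the Lgr5 array, a difference of 9.68 (SE 0.18, adjusted p = 1.1e-05). Ang4, a microbicidal ribonuclease of Paneth cells, read 4.25 and 4.25 in the CD24 high arrays and -5.23 in the Lgr5 array, a difference of 9.48 (SE 0.60, adjusted p = 0.00019). Pla2g2a, a phospholipase that attacks bacterial membranes, read 3.43 and 3.66 in the CD24 high arrays and -2.54 in the Lgr5 array, a difference of 6.09 (SE 0.23, adjusted p = 3.4e-05). Probes for Ang4 and Lyz1 can share signal with their close paralogs, and Lyz2, for which 4.48 and 4.72 against -3.31 was read, cannot be told from Lyz1 here.

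Alpha-defensins, the cryptdins that Paneth granules release into the crypt lumen, held 6 of the 10 largest differences of all genes named by rule. Defa4, with its probe at chr8:22675993-22676052 of mm9, read 5.41 and 5.82 in the CD24 high arrays and -4.49 in the Lgr5 array, the largest difference at 10.10 (SE 0.33, adjusted p = 3.2e-05). Defa20 read 5.12 and 5.39 against -4.78, a difference of 10.03. Defa1 read 7.82 and 6.83 against -2.65, a difference of 9.97. Among these 3 genes every CD24 high value exceeded 5 and every Lgr5 value was under -2. Defa6 (9.66), Defa21 (9.56) and Defa3 (9.38) completed the 6. Defa-rs2 read 11.24 and 3.22 against -0.16, a difference of 7.39 that did not pass the test (adjusted p = 0.27), with its CD24 high replicates far apart and the Lgr5 spot not well above background. Defensin genes are near copies, and some probes overlap in sequence, while others, such as that of Defa21, share at most 8 bases with another. The longest run that the Defa1 and Defa6 probes share has 27 bases, ttgagagatctggtatgctattgtaga, and the Defa4 and Defa20 probes share 18, gaggaccaggctgtgtct, so values of single defensins are uncertain.

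Not every antimicrobial gene of the list differed to this extent. Reg3g, a lectin directed at Gram-positive bacteria, read -0.56 and 0.65 in the CD24 high arrays and -4.22 in the Lgr5 array, a difference of 4.26 (SE 0.57, adjusted p = 0.0022). Reg3b (1.29) and Reg3a (0.74) were called higher by small amounts and stayed below the reference on all 3 arrays. Dmbt1, a scavenger receptor-like mucosal glycoprotein, was the gene called lower, with -2.64 and -3.64 in the CD24 high arrays and -1.16 in the Lgr5 array, a difference of -1.97 (SE 0.44, adjusted p = 0.015).

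RefSeq promoters of 17 measured Paneth granule genes were searched over the 250 bases before the start site, on both strands, for CTTTGAT, a form of the site that TCF factors, the nuclear partners of beta-catenin, bind. It was found in 6 of the 17 (35.3%), namely Defa20, Defa21, Defa22, Defa23, Reg3a and Reg3g, and in 3.23% of 27025 promoters. These are members of 2 gene families, so they are not independent examples. In the same windows TATAAA was found in 47.1% of the list and 13.0% of all promoters. The Defa20 and Defa23 promoters are shown to let the sites be seen in near copies, with the sites in capitals as ATCAAAG, the reverse strand of the searched letters (GRCm38.p6, chr8:21509008-21509257, plus strand, and chr8:21054790-21055039, plus strand). Each holds 2 sites, and the Defa20 window is identical to that of Defa21 at 98.0% of bases.
Defa20: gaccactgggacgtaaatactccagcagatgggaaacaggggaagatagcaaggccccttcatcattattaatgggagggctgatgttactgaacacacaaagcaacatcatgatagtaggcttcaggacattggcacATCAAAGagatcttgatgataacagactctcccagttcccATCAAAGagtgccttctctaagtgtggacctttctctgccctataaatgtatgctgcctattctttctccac
Defa23: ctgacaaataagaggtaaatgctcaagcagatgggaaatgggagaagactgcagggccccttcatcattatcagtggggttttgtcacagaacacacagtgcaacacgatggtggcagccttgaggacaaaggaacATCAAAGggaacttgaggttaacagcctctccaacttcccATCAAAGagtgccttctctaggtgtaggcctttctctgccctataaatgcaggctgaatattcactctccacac

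Signals from Paneth cells to stem cells were the next group. Of 18 listed genes 15 were measured, 9 were called higher, the sort gene Cd24a included, and 0 lower, with a median difference of 2.31. Wnt3, the Wnt ligand that Paneth cells pass to their stem cell neighbours, read 4.80 and 4.68 in the CD24 high arrays and -0.55 in the Lgr5 array, a mean of 4.74 ± 0.08 (SD, n = 2) and a difference of 5.29 (SE 0.31, adjusted p = 0.00016), 39.2-fold. A second probe of Wnt3 gave 3.63. The CD24 medium and low arrays read 2.19, 2.62, 0.87 and 1.50 for Wnt3, between the other groups. Wnt11, a ligand mostly linked to non-canonical Wnt signalling, read 3.38 and 4.96 in the CD24 high arrays and -0.58 in the Lgr5 array, a difference of 4.74 (adjusted p = 0.0015), with its Lgr5 spot not well above background. On Wnt11 the other Dll1 arrays, at -0.44, -0.46, -0.75 and -0.73, were as low as the Lgr5 array.

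Egf, the epidermal growth factor itself, read 2.41 and 1.80 in the CD24 high arrays and -0.80 in the Lgr5 array, at least 5.33-fold higher (adjusted p = 0.0011) because its Lgr5 spot was not well above background. Such a bound compares the sample channel alone and takes, for a dim spot, its own signal or the lowest signal of probes well above background, whichever is higher, and it is open to dye bias because no dyes were swapped. Tgfa, another EGF receptor ligand, read 2.08 and 2.70 in the CD24 high arrays and -0.85 in the Lgr5 array, a difference of 3.24 (SE 0.28, adjusted p = 0.00050), but its probe holds 1 of the 6-base runs described below. Areg, amphiregulin, read 0.00 and -0.50 in the CD24 high arrays and -2.56 in the Lgr5 array, a difference of 2.31 (SE 0.63, adjusted p = 0.030). Without CD24 high replicate 1 the Areg difference was 2.07 (adjusted p = 0.10) and without replicate 2 it was 2.56 (adjusted p = 0.062), so that call rested on both. Ereg, epiregulin, was at -0.16 and -0.10 against -0.24, with its CD24 high spots not well above background. Of these 4 listed ligands, Egf and Tgfa stood above the reference in both CD24 high arrays and below it in the Lgr5 array.

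Dll4, a Notch ligand that Paneth cells present to stem cells, read 2.66 and 1.78 in the CD24 high arrays and 0.14 in the Lgr5 array, a difference of 2.08 (SE 0.39, adjusted p = 0.0078). The CD24 medium and low arrays read 3.14, 3.41, 2.81 and 3.25 for Dll4, and CD24 high minus their mean was -0.93 (adjusted p = 0.051), not past the test. Jag1, another Notch ligand, read -0.24 and -0.17 against -0.19 and did not pass. Kit, the receptor for stem cell factor, read 2.03 and 1.78 in the CD24 high arrays and -1.06 in the Lgr5 array, a difference of 2.97 (SE 0.20, adjusted p = 0.00023), while its ligand gene Kitl read -1.94 and -1.31 against -0.54, not past the test (adjusted p = 0.069), with its CD24 high spots not well above background. Kitl passed, at the same difference of -1.08, when either CD24 low array was left out (adjusted p = 0.048). Bmp4, a ligand that restrains stem cell growth and is known mainly from the mesenchyme, read 1.78 and 3.23 in the CD24 high arrays and -1.90 in the Lgr5 array, a difference of 4.41 (SE 0.53, adjusted p = 0.0016). The CD24 high replicates of Bmp4 differed by over 1 log2 unit and both stood above every other array. Csf1 (0.65, adjusted p = 0.18) and Wnt9b (-0.36, adjusted p = 0.57) did not pass, and their CD24 high spots were not well above background.

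**Figure D3:**
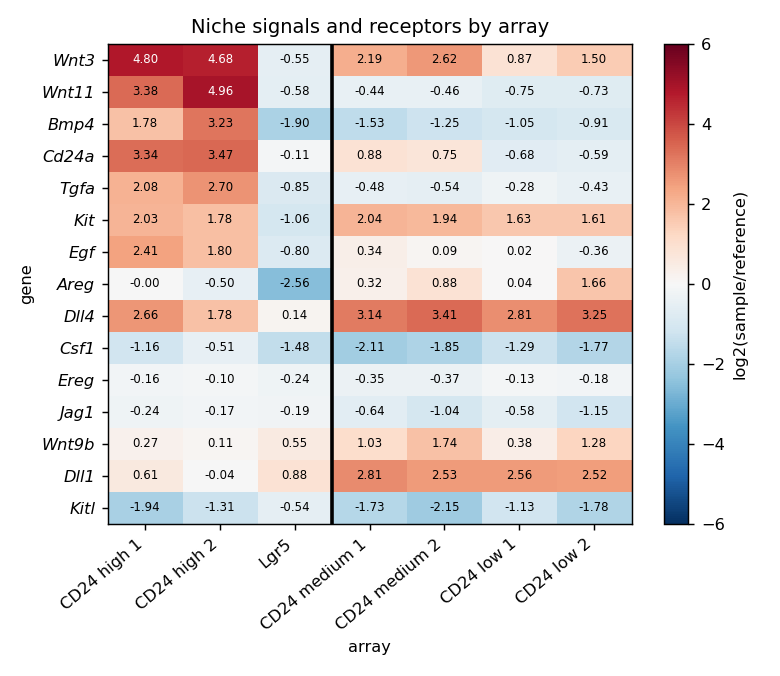
Log2 of sample over reference for the 15 measured niche genes on each of the 7 arrays, with the compared arrays left of the black line. Wnt3, Wnt11, Bmp4, Tgfa and Egf are highest in both CD24 high arrays, whereas Dll4 is higher, and Kit close to level, in the CD24 medium and low arrays.

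Transcription factors of the secretory lineage were higher in CD24 high cells for 10 of 17 measured genes and lower for 0, with a median difference of 1.50. Atoh1, the factor that commits progenitors to secretory fates, read 0.98 and 0.31 in the CD24 high arrays and -1.08 in the Lgr5 array, a difference of 1.72 (SE 0.40, adjusted p = 0.018). Without CD24 high replicate 1 the Atoh1 difference was 1.39 (adjusted p = 0.058), and with the sample channel alone it was 1.12 (adjusted p = 0.17), so this call depended on that array and on the reference channel. Gfi1, which acts below Atoh1 and holds back the enteroendocrine fate, read 1.69 and 0.71 in the CD24 high arrays and -1.89 in the Lgr5 array, a difference of 3.09 (SE 0.43, adjusted p = 0.0028). Spdef, required for the maturation of goblet and Paneth cells, read 3.66 and 3.54 in the CD24 high arrays and -1.34 in the Lgr5 array, a difference of 4.94 (SE 0.26, adjusted p = 9.7e-05). Against the other Dll1 cells none of these 3 genes passed the test, with differences of -0.58 (adjusted p = 0.18), -0.94 (adjusted p = 0.068) and 0.03 (adjusted p = 0.93). These 3 genes passed the test against the Lgr5 cells and missed it against the other Dll1 cells.

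Bhlha15, also known as Mist1 and a regulator of the architecture of secretory cells, read 5.32 and 4.53 in the CD24 high arrays and -1.43 in the Lgr5 array, a difference of 6.35 (SE 0.40, adjusted p = 0.00019), although a second probe gave 1.14. It was also higher than in the other Dll1 cells, by 2.82 (adjusted p = 0.0012). Klf4, a factor of differentiated epithelium, read 1.87 and 1.51 in the CD24 high arrays and -4.20 in the Lgr5 array, a difference of 5.89 (SE 0.25, adjusted p = 4.7e-05). Creb3l4, a membrane-bound factor of secretory cells, read 3.23 and 3.19 in the CD24 high arrays and -0.98 in the Lgr5 array, a difference of 4.19 (SE 0.19, adjusted p = 5.7e-05). Insm2 read 4.31 and 4.31 against 0.29, but its probe holds 1 of the 6-base runs described below. Sox9, needed for Paneth cells to form and also active in stem cells, read 2.18 and 1.66 against 1.23 and did not pass (adjusted p = 0.12).

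The protein folding machinery of the endoplasmic reticulum (ER) was higher almost throughout. Of 31 measured genes of ER folding and stress response 27 were called higher and 0 lower, with a median difference of 2.69. The list's median level was 1.90 and 1.19 in the CD24 high arrays and -0.76 in the Lgr5 array, and 0.80 to 1.26 in the other Dll1 arrays. Ern2, the epithelial form of the unfolded protein sensor IRE1, read 4.26 and 3.91 in the CD24 high arrays and -0.73 in the Lgr5 array, a difference of 4.81 (SE 0.22, adjusted p = 5.5e-05). Agr2, a disulfide isomerase needed for mucin folding, read 2.35 and 1.87 in the CD24 high arrays and -2.66 in the Lgr5 array, a difference of 4.77 (SE 0.28, adjusted p = 0.00015). Herpud1, part of ER-associated degradation, read 4.11 and 3.38 in the CD24 high arrays and -0.76 in the Lgr5 array, a difference of 4.51 (SE 0.40, adjusted p = 0.00055). Xbp1, the factor that IRE1 activates by splicing and that Paneth cells depend on, read 0.87 and 1.06 in the CD24 high arrays and -1.85 in the Lgr5 array, a difference of 2.81 (SE 0.29, adjusted p = 0.00096).

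Ddit3, also known as CHOP and a factor of prolonged ER stress, read 5.70 and 3.66 in the CD24 high arrays and 0.10 in the Lgr5 array, a difference of 4.57 (SE 0.84, adjusted p = 0.0073). Its CD24 high replicates lay about 2 log2 units apart and both exceeded the Lgr5 array. Trib3, a target of Ddit3 and Atf4, read 0.82 and 2.14 in the CD24 high arrays and -2.60 in the Lgr5 array, a difference of 4.08 (SE 0.55, adjusted p = 0.0024). The second probe of Trib3 gave 2.12. Hspa5, the ER chaperone BiP, read 3.36 and 1.89 in the CD24 high arrays and -0.78 in the Lgr5 array, a difference of 3.41 (SE 0.67, adjusted p = 0.0095). Dnajc3, a co-chaperone of BiP, read 2.58 and 2.12 in the CD24 high arrays and -1.65 in the Lgr5 array, a difference of 4.00 (SE 0.42, adjusted p = 0.00099). The members not called were Creld2 (2.01), Sel1l (1.36), Pdia4 (0.30) and Canx (-0.86), and the replicate 1 value was the higher in CD24 high cells for each of these.

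The ER stress response element, CCAAT and CCACG with 9 bases between them, is bound by ATF6 together with the factor NF-Y. In 27 promoters of this list it was found in 9 (33.3%), and in 33 of 27025 promoters in all (0.122%). The holders were Dnajc3, Syvn1, Hspa5, Derl3, Pdia6, Creld2, Hsp90b1, Calr and Canx, of which Creld2 and Canx were not called. The list was put together from genes known to respond to ER stress, so the presence of the element there does not depend on these arrays. The 3 called genes with the largest differences among the holders are shown with the element in capitals (GRCm38.p6, Dnajc3 chr14:118937682-118937931, plus strand, Syvn1 chr19:6046326-6046575, plus strand, Hspa5 chr2:34771840-34772089, plus strand). Syvn1, a ubiquitin ligase of ER-associated degradation, read 2.57 and 1.63 against -1.46, but its second probe gave 0.37.
Dnajc3: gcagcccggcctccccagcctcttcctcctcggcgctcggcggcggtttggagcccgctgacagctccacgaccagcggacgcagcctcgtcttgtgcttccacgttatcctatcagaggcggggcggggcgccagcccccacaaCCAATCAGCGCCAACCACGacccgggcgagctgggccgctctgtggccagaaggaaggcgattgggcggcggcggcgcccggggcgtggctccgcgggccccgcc
Syvn1: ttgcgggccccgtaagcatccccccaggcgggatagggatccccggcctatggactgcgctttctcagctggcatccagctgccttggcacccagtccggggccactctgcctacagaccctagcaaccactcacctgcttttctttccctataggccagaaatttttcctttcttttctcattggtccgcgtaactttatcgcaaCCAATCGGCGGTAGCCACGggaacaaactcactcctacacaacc
Hspa5: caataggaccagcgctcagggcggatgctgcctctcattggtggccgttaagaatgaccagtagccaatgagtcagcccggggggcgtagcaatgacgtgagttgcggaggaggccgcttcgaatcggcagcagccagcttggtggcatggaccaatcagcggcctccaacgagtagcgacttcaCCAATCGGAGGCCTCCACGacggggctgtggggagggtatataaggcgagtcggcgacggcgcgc

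Genes of translocation into the ER and of export from it were called higher for 34 of 39 measured members and lower for 0, with a median of 1.98. Kdelr3, a receptor that returns ER residents from the Golgi, read 2.05 and 2.07 in the CD24 high arrays and -2.36 in the Lgr5 array, a difference of 4.42 (SE 0.18, adjusted p = 4.1e-05). Tmed6, a cargo receptor of the p24 family, read 4.21 and 4.31 in the CD24 high arrays and 0.16 in the Lgr5 array, a difference of 4.10 (SE 0.27, adjusted p = 0.00023). Sec24d, a cargo-binding subunit of COPII coats, read 0.04 and -0.14 in the CD24 high arrays and -3.15 in the Lgr5 array, a difference of 3.10 (SE 0.21, adjusted p = 0.00026). Spcs2, a subunit of signal peptidase, read 2.75 and 2.43 against -0.38, and Mcfd2, a partner of the cargo receptor LMAN1, read 1.26 and 1.11 against -1.69. A second probe of Spcs2 gave 1.39. Tmed3 read 2.79 and 3.02 against -0.62 on a probe that holds 1 of the 6-base runs described below. Against the mean of CD24 medium and low cells, 23 of the 39 genes were called higher, beside 15.1% of 17537 genes tested in that comparison, and 1 lower, beside 9.71%. Tmed6 differed there by 4.32 (adjusted p = 4.5e-05) and Kdelr3 by 0.03 (adjusted p = 0.89), so Tmed6 stood above the other Dll1 cells and Kdelr3 missed the test against them.

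**Figure D4:**
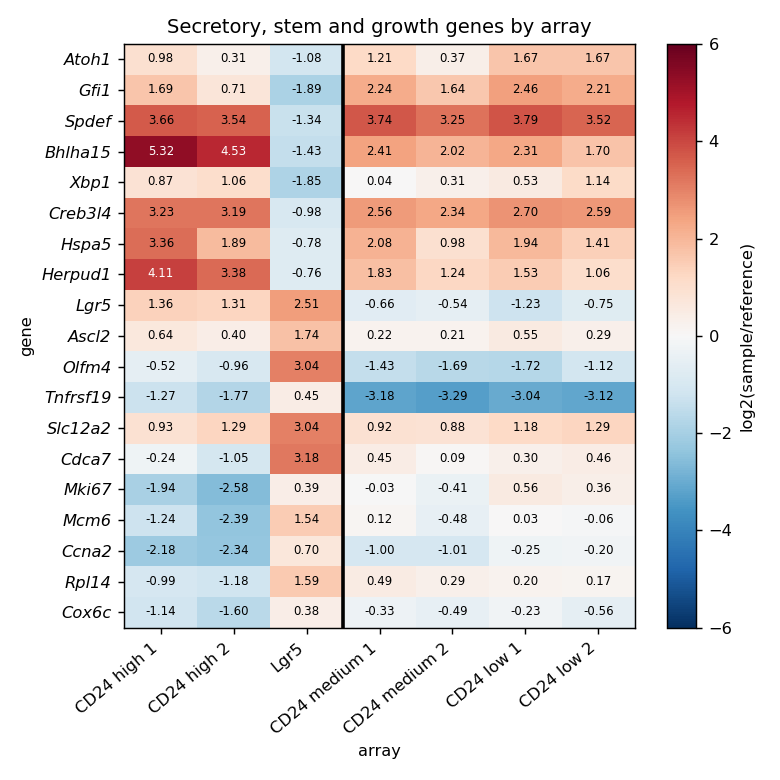
Log2 of sample over reference for 19 secretory, stem cell and growth genes on each of the 7 arrays, with the compared arrays left of the black line. Secretory genes from Atoh1 to Herpud1 are lowest in the Lgr5 array, and the stem cell genes from Lgr5 to Cdca7 are highest in it.

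Of 25 measured genes of zinc transport and granule handling, 12 were called higher and 1 lower, beside 21.2% and 14.6% of all genes. The median was 1.14 (8 higher and 0.55 with the sample channel alone). Slc39a7, a zinc transporter of the ER, read 2.90 and 3.02 in the CD24 high arrays and -0.15 in the Lgr5 array, a difference of 3.11 (SE 0.19, adjusted p = 0.00017). Sytl2, which tethers vesicles to the plasma membrane, read 1.39 and 1.12 against -2.54, a difference of 3.79. Syt7, a calcium sensor of exocytosis, read 1.59 and 1.47 against -2.24, a difference of 3.77, but its further probes gave 0.32 to 0.54. Rab3d, a GTPase of secretory granules, read 2.46 and 2.56 against -0.64, and Rab27a, another, read 1.38 and 1.15 against -1.62. The second probe of Rab27a gave 0.61. Copz2, a subunit of COPI coats, was at least 15.3-fold higher, with its Lgr5 spot not well above background.

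Lysosome and autophagy genes were called higher for 16 of 30 measured members and lower for 3, with a median of 0.91 (11, 5 and 0.38 with the sample channel alone). Sqstm1, the autophagy receptor p62, read 2.16 and 2.73 in the CD24 high arrays and -1.35 in the Lgr5 array, a difference of 3.80 (SE 0.35, adjusted p = 0.00062). Lamp2, a lysosomal membrane protein, read 1.89 and 1.94 in the CD24 high arrays and -1.23 in the Lgr5 array, a difference of 3.14 (SE 0.28, adjusted p = 0.00056), and its second probe gave 1.01. Gabarapl1, an Atg8 family protein, read 1.23 and 2.04 against -1.12, with 1.25 on its second probe. Ctss, the cathepsin that processes the MHC class II invariant chain, went the other way, with -5.14 and -4.74 in the CD24 high arrays and -2.42 in the Lgr5 array, a difference of -2.52 (SE 0.25, adjusted p = 0.00080).

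Among 13 measured genes of pancreas-type secretion 12 were called higher and 0 lower, with a median of 1.70, but the size of the differences was split. Clps, colipase, read 6.10 and 6.16 in the CD24 high arrays and -1.47 in the Lgr5 array, a difference of 7.60 (SE 0.76, adjusted p = 0.00082). Pnliprp2, a pancreatic lipase-related enzyme, read 5.33 and 5.56 in the CD24 high arrays and -2.61 in the Lgr5 array, a difference of 8.06 (SE 0.35, adjusted p = 4.8e-05). The other members named by rule, such as Amy1 (-5.17 and -5.02 against -7.16) and Amy2a5 (-4.06 and -3.48 against -5.63), both amylases, stood well below the reference in all 3 arrays. Amy2a5 was not called with the sample channel alone, at 0.48 (adjusted p = 0.10). Prss3, a trypsinogen, read -2.50 and -2.04 against -4.90 on a probe with 1 of the 6-base runs described below, and 1.73 was the difference on its second probe. With the sample channel alone the list's median fell to 0.69 and 6 of 13 genes were called.

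Goblet cell genes were called higher for 16 of 20 measured members and lower for 1, with a median of 3.57. Muc2, the gel-forming mucin of goblet cells, read 2.42 and 2.56 in the CD24 high arrays and -3.96 in the Lgr5 array, a difference of 6.44 (SE 0.37, adjusted p = 0.00013), and 2.00 and 3.38 on its further probes. Tff3, the trefoil factor of goblet cells, read 2.09 and 1.91 in the CD24 high arrays and -2.13 in the Lgr5 array, a difference of 4.13 (SE 0.31, adjusted p = 0.00034). Fcgbp, a mucus protein, read -0.49 and -0.93 against -3.33, and Zg16, a mucus lectin, read -2.73 and -3.78 against -4.84 and did not pass (adjusted p = 0.16). Ccl6, a chemokine, differed by 7.89, and Spink4, a protease inhibitor, read 5.64 and 5.51 against -1.87, a difference of 7.45. Against the mean of CD24 medium and low cells the list pointed the other way, with a median of -1.31. In that comparison 4 of 20 genes were higher and 11 lower, beside 15.1% and 9.71% of all genes. Muc2 differed there by 0.29 (adjusted p = 0.45) and Agr2 by -1.50 (adjusted p = 0.0034). The list's median level was 1.31 and 0.64 in the CD24 high arrays and -2.07 in the Lgr5 array, and 1.99 to 2.81 in the other Dll1 arrays. What part goblet cells had in the CD24 high sorts was not tested.

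Enteroendocrine and tuft cells are the other secretory types, and markers of the former were mostly not called in the fit over all arrays. Enteroendocrine genes were called higher for 4 of 33 measured members and lower for 0, beside 21.2% of all genes called higher. The count was 12 with the compared groups fitted alone and 8 with the replicate block, so no order against all genes is read from it. Against the mean of CD24 medium and low cells 2 of the 33 were higher and 19 lower, beside 15.1% and 9.71% of all genes, with a median of -1.80. The list's median level was -0.07 and -0.01 in the CD24 high arrays and -0.64 in the Lgr5 array. It was 1.99 and 3.25 in the CD24 medium arrays and 0.39 and 1.51 in the CD24 low arrays. The 4 called higher than in Lgr5 cells were hormone genes. Sct for secretin read 1.47 and 1.53 against -3.12, and Gip 2.06 and 1.53 against -1.87. Ghrl for ghrelin read 1.71 and 3.02 against -0.44, and Sst for somatostatin 0.86 and 0.57 against -1.40. Ghrl was no longer called without CD24 high replicate 2, with a difference of 2.15 (adjusted p = 0.11). Chga, a granin common to most enteroendocrine cells, read -1.22 and -0.14 against -1.53, and the factor Neurod1 read -0.51 and -0.12 against -0.22 with no spot of these 3 arrays well above background. Tuft cell genes were called higher for 7 of 18, beside 21.2% of all genes, and lower for 0, with a median of 0.80. With the sample channel alone 2 of 18 were called higher. Against the mean of CD24 medium and low cells 7 of 18 were higher and 0 lower, beside 15.1% and 9.71% of all genes. Dclk1 (0.70), Trpm5 (0.89) and Gng13 (0.82), which define tuft cells, did not pass. Of the tuft genes called, Rgs13 (1.39) lost its call without CD24 high replicate 2, at 1.25 (adjusted p = 0.071).

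Of 36 measured genes of the stem cell list, 18 were called lower in CD24 high cells, the sort gene Lgr5 included, and 4 higher. Over all genes 14.6% were called lower and 21.2% higher. The list's median difference was -1.12. The list's median level was -0.15 and -0.27 in the CD24 high arrays and 0.86 in the Lgr5 array. Olfm4, a secreted marker of crypt base stem cells, had its probe at chr14:80421398-80421457 of mm9 and read -0.52 and -0.96 in the CD24 high arrays and 3.04 in the Lgr5 array, a difference of -3.78 (SE 0.32, adjusted p = 0.00047), 13.8-fold. Its second probe gave -4.73. Ascl2, a master factor of the stem cell state, read 0.64 and 0.40 in the CD24 high arrays and 1.74 in the Lgr5 array, a difference of -1.22 (SE 0.21, adjusted p = 0.0060). Tnfrsf19, a stem cell receptor of the TNF family, read -1.27 and -1.77 in the CD24 high arrays and 0.45 in the Lgr5 array, a difference of -1.97 (SE 0.25, adjusted p = 0.0019). Slc12a2, a chloride cotransporter of crypt cells, read 0.93 and 1.29 in the CD24 high arrays and 3.04 in the Lgr5 array, a difference of -1.93 (SE 0.22, adjusted p = 0.0012). Cdca7, a Myc-responsive gene, read -0.24 and -1.05 in the CD24 high arrays and 3.18 in the Lgr5 array, a difference of -3.82 (SE 0.35, adjusted p = 0.00064), and Slc14a1, a urea transporter, read -0.85 and -0.94 against 2.24. Scn2b, a sodium channel subunit, read -0.82 and -0.82 against 3.27, with 1 CD24 high spot not well above background.

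Other stem cell markers did not pass the test. Smoc2, a matrix protein of stem cells, read 2.30 and 2.21 in the CD24 high arrays and 1.70 in the Lgr5 array, a difference of 0.55 (SE 0.31, adjusted p = 0.22). Soat1, an acyltransferase of the stem cell list, read 2.82 and 2.56 against 2.87, Lrig1, a brake on EGF receptor signalling, read 0.81 and 0.67 against 0.85, and Rnf43, a ubiquitin ligase that removes Wnt receptors, read 0.31 and -0.08 against 0.24. Rgmb read 1.89 and 1.05 against 2.53 (adjusted p = 0.054). The 4 genes called higher were Nkd1, a Wnt feedback inhibitor, at -0.92 and -1.01 against -4.15, and Phlda1 (2.07), Msi1 (1.27) and Zfp57, the last with its Lgr5 spot not well above background. Against CD24 medium and low cells 13 of the 36 were called higher in CD24 high cells and 4 lower, beside 15.1% and 9.71% of all genes. Olfm4 differed there by 0.75 (adjusted p = 0.055) and Lgr5 by 2.13 (adjusted p = 0.00051).

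Wnt targets and feedback genes were mixed, with 11 of 31 measured members called higher and 10 lower, beside 21.2% and 14.6% of all genes. Their median was 0.16, and -0.22 with the series matrix, -0.04 with the sample channel alone, 0.30 without CD24 high replicate 1 and 0.08 without replicate 2, so no direction is given for the list. Beside Mmp7, the higher genes held Nkd1 (3.19), the Wnt inhibitor Dkk3 (at least 3.51-fold), the carboxylesterase Notum (1.61) and the factor Tcf7l2 (1.72). Ephb3, the receptor that keeps Paneth cells at the crypt base, read 3.95 and 3.72 in the CD24 high arrays and 1.33 in the Lgr5 array, a difference of 2.51 (SE 0.24, adjusted p = 0.00074), on a probe with 1 of the 6-base runs described below. The lower genes held Cd44 (-1.77 and -1.71 against 0.87), Sp5 (-2.72 and -2.45 against -0.32), Myc (-1.32 and -1.11 against 0.46), Ccnd1 (-0.86 and -1.30 against 0.62), Ccnd2 (-1.66 and -1.55 against 0.19) and Axin2 (-1.15 and -0.77 against 0.38). Axin2, the most used reporter of Wnt signalling, was not well above background in either CD24 high array. Ephb2, a receptor of stem and progenitor cells, was lower at 0.45 and 0.25 against 1.29. Further probes gave 1.61 for Nkd1, -2.29 and -0.35 for Cd44, -1.31 and -0.02 for Myc, -0.31 for Ephb2, and 0.34 and 0.52 for Tcf7l2.

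On the receiving side of Notch, 3 of 15 measured genes were called higher and 5 lower, beside 21.2% and 14.6% of all genes. The share called higher was near that of all genes. The list's median was -0.06, and 0.06 with slide as a term. It was 0.55 over the probes well above background on all 7 arrays and -0.36 without CD24 high replicate 1. No direction is therefore given for the list. Notch1, the main Notch receptor of the crypt, read -0.58 and -0.23 in the CD24 high arrays and 0.98 in the Lgr5 array, and was at least 2.5-fold lower in CD24 high cells (adjusted p = 0.0052), whose spots were not well above background. Notch2 was likewise lower on its brightest probe, at -1.07 and -0.64 against 0.84 with both CD24 high spots not well above background, but its second probe gave 0.90, and with all probes averaged the difference was -0.40 (adjusted p = 0.16). Nrarp, a feedback gene of Notch, read -0.60 and -0.32 against 0.97, at least 2.52-fold lower. Hes1, the best known Notch target, read 0.18 and -0.19 against 0.06 and did not pass (adjusted p = 0.86). Dtx4, a ubiquitin ligase of the pathway, read -0.60 and -0.50 against 1.98, a difference of -2.53. Rfng, which adds sugars to Notch, was higher at 4.94 and 3.96 against -0.16, a difference of 4.61, and Notch4, known from endothelium, was at 2.07 and 1.83 against -0.22.

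Cell cycle genes were mostly lower. Of 36 measured genes of the G1/S transition and DNA replication 32 were called lower, beside 14.6% of all genes, and 0 higher, with a median of -2.23. Of 30 genes of G2 and mitosis 25 were called lower and 0 higher, with a median of -2.06. Uhrf1, which directs maintenance of DNA methylation, read -1.08 and -1.42 in the CD24 high arrays and 2.71 in the Lgr5 array, a difference of -3.96 (SE 0.36, adjusted p = 0.00061). Mcm6, a subunit of the replicative helicase, read -1.24 and -2.39 in the CD24 high arrays and 1.54 in the Lgr5 array, a difference of -3.35 (SE 0.47, adjusted p = 0.0028). Rrm1, of ribonucleotide reductase, read -1.85 and -2.17 in the CD24 high arrays and 1.16 in the Lgr5 array, a difference of -3.17 (SE 0.22, adjusted p = 0.00026). Birc5, survivin, read -2.04 and -3.13 in the CD24 high arrays and 0.86 in the Lgr5 array, a difference of -3.44 (SE 0.42, adjusted p = 0.0016). Cdc20, the activator of the anaphase-promoting complex, read -1.50 and -2.19 in the CD24 high arrays and 1.40 in the Lgr5 array, a difference of -3.25 (SE 0.31, adjusted p = 0.00071). Ccna2, cyclin A2, read -2.18 and -2.34 in the CD24 high arrays and 0.70 in the Lgr5 array, a difference of -2.96 (SE 0.18, adjusted p = 0.00017), and Mki67, the proliferation marker Ki-67, read -1.94 and -2.58 against 0.39.

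The median level of the replication list was -0.73 and -0.82 in the CD24 high arrays and 1.38 in the Lgr5 array, and -0.20 to 0.24 in the other Dll1 arrays, which lay between. Against those cells 23 of the 36 replication genes and 22 of the 30 mitotic genes were called lower in CD24 high cells, beside 9.71% of all genes. The E2F site TTCCCGC was found in 9 of 30 promoters of the replication list (30.0%) and in 3.84% of all promoters, and CCAAT in 22 of 26 promoters of the mitotic list (84.6%) and in 34.5% of all, which are known features of such genes. CCAAT is also the first part of the ER stress response element, and was found in 77.8% of the ER folding list, which went the opposite way. The promoter of Uhrf1, the gene with the largest difference among the holders of the E2F site, is shown with that site in capitals (GRCm38.p6, chr17:56303087-56303336, plus strand).
Uhrf1: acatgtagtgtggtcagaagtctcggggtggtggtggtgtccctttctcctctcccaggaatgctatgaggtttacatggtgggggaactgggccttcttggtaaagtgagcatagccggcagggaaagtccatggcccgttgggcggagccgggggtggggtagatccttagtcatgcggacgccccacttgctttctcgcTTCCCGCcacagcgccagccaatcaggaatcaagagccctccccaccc

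Chromatin and DNA methylation genes were called lower for 9 of 19 measured members and higher for 0, beside 14.6% and 21.2% of all genes. Their median was -0.50 (-1.56 with the series matrix and -0.81 with the sample channel alone). Dnmt1, the maintenance DNA methyltransferase, read -0.39 and -0.55 in the CD24 high arrays and 1.60 in the Lgr5 array, a difference of -2.07 (SE 0.24, adjusted p = 0.0015). Hmga1 (-0.31 and -0.75 against 1.62) and Hmgb2 (-1.86 and -2.15 against 0.31), both high mobility group proteins, and the helicase Hells (-0.98 and -0.84 against 1.16, with 1 CD24 high spot not well above background) were also lower.

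Genes of ribosomes and of the respiratory chain were lower by small amounts. Of 44 measured cytosolic ribosomal proteins 32 were called lower and 0 higher, with a median of -0.87 and levels of -0.26 and -0.34 in the CD24 high arrays and 0.62 in the Lgr5 array. Rpl14 had the largest difference, with -0.99 and -1.18 in the CD24 high arrays and 1.59 in the Lgr5 array, a difference of -2.68 (SE 0.20, adjusted p = 0.00033). The number called lower was 16 with the series matrix and 42 with the sample channel alone. Rps19 (-1.76 and -1.80 against -0.27) and Rplp1 (-0.54 and -0.52 against 0.95) were more typical of the members named by rule. Ribosome biogenesis genes were lower for 14 of 30 and higher for 0, with a median of -0.82, and without CD24 high replicate 2 for 8 of 30. Npm1, nucleophosmin, read -1.10 and -1.24 in the CD24 high arrays and 0.60 in the Lgr5 array, a difference of -1.77 (SE 0.20, adjusted p = 0.0014). Polr1b, a subunit of RNA polymerase I, read 0.46 and -0.05 against 1.36, and was not called without CD24 high replicate 2, at -0.90 (adjusted p = 0.055). Ribosomal protein genes have many processed copies in the genome, so their probes are uncertain.

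Respiratory chain genes were lower for 20 of 34 measured members and higher for 1, with a median of -0.82 (30 lower and -1.38 with the sample channel alone). Cox6c, of cytochrome oxidase, read -1.14 and -1.60 in the CD24 high arrays and 0.38 in the Lgr5 array, a difference of -1.76 (SE 0.26, adjusted p = 0.0036). Sdha, of complex II, read -1.12 and -1.34 against 0.20. Of 27 glycolysis genes 8 were higher and 7 lower (4 without CD24 high replicate 2), beside 21.2% and 14.6% of all genes. Their median was -0.34. The split depended on the scaling, with 4 higher and 11 lower with the series matrix, and 4 and 16 with a median of -0.84 with the sample channel alone. The higher genes included Hk1, hexokinase 1, at -0.72 and -0.80 against -3.02, the glucose transporter Slc2a1 at -0.91 and -0.98 against -2.47 and the lactate exporter Slc16a3 at -2.08 and -2.13 against -4.12. The lower genes included the lactate transporter Slc16a1 at -1.35 and -1.67 against 0.91 and the gluconeogenic enzyme Fbp1 at -1.08 and -1.18 against 1.01. Further probes of Slc16a1 gave -2.54 and 0.50, and 4 further probes of Hk1 gave 0.17 to 1.11. Of the further probes of Sdha the smallest difference was -0.55.

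Of 14 antigen presentation genes 3 were called higher and 6 lower, beside 21.2% and 14.6% of all genes, with a median of -0.89. The share called higher was near that of all genes. Without either CD24 high replicate 3 were lower. The class I genes H2-D1 (0.22 and 0.64 against -2.06) and H2-K1 (0.55 and 0.74 against -1.38) were higher in CD24 high cells. Ciita, the master regulator of MHC class II, was lower at -0.27 and -0.30 against 1.37, with 1 CD24 high spot not well above background. H2-Eb1, a class II chain, was lower at -1.04 and -1.05 against 0.30, but without CD24 high replicate 1 it gave -1.35 (adjusted p = 0.066) and without replicate 2 -1.34 (adjusted p = 0.071). Psmb8 (-1.48 and -1.79 against -0.27) and Psmb9 (-1.19 and -1.47 against 0.22), subunits of the immunoproteasome, were lower too.

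Immediate early genes, which are transcribed within minutes of many stimuli, were called higher for 16 of 16 measured members, with a median of 4.51. It was 3.72 without CD24 high replicate 1 and 5.19 without replicate 2. Nr4a1, an orphan nuclear receptor, read 5.37 and 4.92 in the CD24 high arrays and -2.14 in the Lgr5 array, a difference of 7.28 (SE 0.40, adjusted p = 0.00011). Atf3, a stress-responsive factor, read 5.76 and 5.41 in the CD24 high arrays and -1.38 in the Lgr5 array, a difference of 6.96 (SE 0.39, adjusted p = 0.00012). Fos read 4.10 and 1.51 in the CD24 high arrays and -2.12 in the Lgr5 array, a difference of 4.93 (SE 0.92, adjusted p = 0.0078), with over 2 log2 units between the CD24 high replicates. Egr1 read 5.87 and 4.00 in the CD24 high arrays and -0.75 in the Lgr5 array, a difference of 5.68 (SE 0.71, adjusted p = 0.0018). The list's median level was 4.26 and 2.85 in the CD24 high arrays and -1.06 in the Lgr5 array, and 2.10 to 3.17 in the CD24 medium and low arrays, so all Dll1 arrays stood above the single Lgr5 array. The Lgr5 cells came from another mouse line and another sort. For these genes, as for all others, line, sort and cell type cannot be told apart.

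Junction and keratin genes were called higher for 5 of 14 measured members and lower for 0, beside 21.2% and 14.6% of all genes. Their median of 0.49 turned to -0.18 with the sample channel alone. Cldn4, a claudin, read 3.06 and 3.50 in the CD24 high arrays and -2.11 in the Lgr5 array, a difference of 5.39 (SE 0.51, adjusted p = 0.00070). Krt18 (1.67 and 1.92 against -1.10) and Krt8 (-0.59 and -0.38 against -2.47), the paired keratins of simple epithelia, were higher as well.

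Lists of markers of cells outside the secretory lineage had medians below the reference on all 3 arrays. Enterocyte genes were called higher for 12 of 27 and lower for 2, with a median of 1.16 and levels of -3.02 and -2.88 in the CD24 high arrays and -3.52 in the Lgr5 array. Slc2a5 had the largest difference of the enterocyte list, 2.82, and Apoa1 and Anpep came next among its members named by rule. These genes were called higher, were well above background on all 3 arrays and stayed below the reference. Fabp1, a fatty acid-binding protein of enterocytes, read -6.06 and -5.76 against -5.86 and did not pass, and Alpi, intestinal alkaline phosphatase, read -1.84 and -1.54 against -3.47. Lct, lactase, at -4.57 and -3.43 against -5.78, was among the least stable calls, at 1.20 (adjusted p = 0.12) without CD24 high replicate 2 and past 0.05 without either CD24 medium array as well (adjusted p = 0.055). Krt20, a keratin of differentiated cells, was not called without CD24 high replicate 2, at 1.73 (adjusted p = 0.056). Immune genes were higher for 15 of 19 and lower for 0 (9 higher without CD24 high replicate 2), with a median of 1.1 and levels of -1.14 and -0.67 in the CD24 high arrays and -2.27 in the Lgr5 array. Csf1r, of macrophages, read -1.74 and -1.16 against -2.48, with 1 CD24 high spot not well above background, and Cd3e, of T cells, read 0.24 and 0.20 against -0.06 and did not pass. Genes of mesenchyme, endothelium and muscle were higher for 8 of 10, with a median of 1.41 and levels of -2.68 and -2.45 in the CD24 high arrays and -4.08 in the Lgr5 array. Col1a1, a fibroblast collagen, read -3.59 and -2.70 against -4.84, with neither CD24 high spot well above background, and Acta2, of smooth muscle, read -0.66 and -0.68 against -1.84. Further probes gave smaller differences for Alpi (0.80), Csf1r (0.24) and Col1a1 (0.38 and 1.14). With the sample channel alone the medians of these 3 lists were 0.05, 0.12 and 0.10, 3, 2 and 2 of their genes were called higher, and 5 enterocyte genes were called lower. Their part in the results above was not tested. Of 3 erythroid genes measured, 1 was called lower, the globin Hbb-bt at -3.92 and -3.45 against -2.19, and its further probes gave -0.60 to -0.52.

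Outside the lists, the largest differences toward the Lgr5 cells included genes of metabolism and transport. Cps1, the first enzyme of the urea cycle, read -1.21 and -2.48 in the CD24 high arrays and 3.04 in the Lgr5 array, the largest difference in this direction at -4.88 (SE 0.48, adjusted p = 0.00078), 29.4-fold. With the sample channel alone it was not called (adjusted p = 0.054). Acot1, an acyl-CoA thioesterase, read -1.22 and -0.86 in the CD24 high arrays and 3.01 in the Lgr5 array, a difference of -4.05 (SE 0.64, adjusted p = 0.0043). Aadac, arylacetamide deacetylase, read -1.80 and -2.59 in the CD24 high arrays and 1.71 in the Lgr5 array, a difference of -3.91 (SE 0.32, adjusted p = 0.00043). Kcnq1, a potassium channel of crypt cells, read -1.35 and -1.88 in the CD24 high arrays and 2.07 in the Lgr5 array, a difference of -3.69 (SE 0.35, adjusted p = 0.00069). Agr3, a relative of Agr2, read -0.69 and -0.62 in the CD24 high arrays and 2.94 in the Lgr5 array, a difference of -3.60 (SE 0.23, adjusted p = 0.00020), opposite in direction to Agr2, with 1 CD24 high spot not well above background. Slc1a3, a glutamate transporter, read -0.61 and -0.06 in the CD24 high arrays and 3.21 in the Lgr5 array, and was at least 10.2-fold lower in CD24 high cells, whose spots were not well above background.

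In the other direction Prm1, a sperm protamine, ranked among the 10 largest differences named by rule, with 4.59 and 5.77 in the CD24 high arrays and -4.47 in the Lgr5 array, a difference of 9.65 (SE 0.69, adjusted p = 0.00029). A second probe of Prm1 gave 0.51. Several genes not known from this tissue shared this pattern, and ranking short sequences in the probes after the values were seen found 2 runs of 6 bases common among them, GTGCCC and GCCGCC. On 238 kept probes that hold GTGCCC the median difference was 1.55 and 26.5% exceeded 3, and on 98 that hold GCCGCC they were 1.22 and 21.4%. Over all 24235 kept probes with a value the median was 0.09 and 2.16% exceeded 3. Of genes whose chosen probe holds either run, 157 of 267 were called higher (58.8%), beside 3550 of 17214 others (20.6%). For 16 of those genes with a difference over 3 a further probe lacking the runs was kept, and the median was 4.45 on the chosen and 0.12 on the further probes.

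Stretches of up to 24 bases around the run are shown for 4 such probes, with the run in capitals, because the run is what these probes share.
Prm1: gctgccgtcGCCGCCgctcataca
Npff: gttccctgtGTGCCCccaaataaa
Fstl3: tcaggtagtGTGCCCgcgtcccca
Insm2: ggtcttcgtGTGCCCgtattgtca
Npff, a neuropeptide gene chosen after its values were seen, read 6.02 and 6.44 against -1.59, and Fstl3, chosen likewise, read 5.91 and 6.28 against -1.09. The median level of GTGCCC probes was 1.46 and 1.05 in the CD24 high arrays, -0.02 in the Lgr5 array and 0.04 to 0.26 in the CD24 medium and low arrays. On single probes the medium arrays also stood above the low arrays, as for Npff at 0.78, 0.95, -1.25 and -1.34. The cause was not tested. None of the Paneth granule, ER folding, stem cell or goblet genes measured had such a probe. Leaving these probes out gave 6117 calls, 3567 higher and 2550 lower, and Prm1 then read 0.51 (adjusted p = 0.18). More widely, of 324 genes called higher by 4-fold or more that had a further probe, 207 (64.1%) had 1 that differed by at least 2-fold in the same direction, and so did 51 of 82 genes called lower (62.2%).

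**Figure D5:**
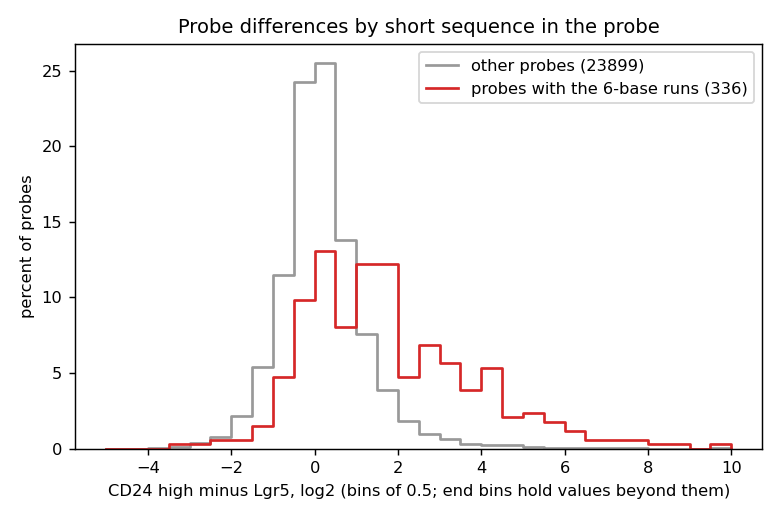
Percent of probes in bins of CD24 high minus Lgr5 (x axis, log2), for the 336 kept probes that hold either 6-base run and the 23899 others. The first group is shifted to the right, with a larger share beyond 3.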

How the data were processed

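Per the file headers, each deposited file lists spot intensity and local background for Cy3 and Cy5, from Agilent Feature Extraction 10.5.1.1 on mm9, with the authors' ratio column in log10 units. The deposited series matrix equals that log10 ratio with its sign turned, within 5e-06 at every spot. Its array medians were 0, except -0.003 for CD24 high replicate 2.

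Background was corrected by normexp on mean signals (offset 50) and each array by loess (span 0.3), with limma 3.58.1 and R 4.3.3. Controls had no weight, and spots that the scanner software marked as outliers in the sample channel were dropped. Probes well above background in the sample channel on at least 2 of 7 arrays were kept (24495), and the brightest gave each gene's value (17537 genes, 17481 with a test). The model had 1 mean per group over the 7 arrays, with 3 residual and 3.55 prior degrees of freedom. The low number of arrays limits the precision. A second comparison, CD24 high against the mean of CD24 medium and CD24 low, came from the same fit and shares the CD24 high arrays, and was called at an adjusted p under 0.05 alone. It called 4343 genes (24.8%).

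RefSeq of GRCm38.p6 named 26918 of 41174 gene probes, 14256 keeping the file's name, and gave the promoters. Its coordinates were not joined to mm9, so exons and UTRs of probes are not given. Plots used Python 3.11.15 and matplotlib 3.10.9. On simulated data of 17319 genes, the CD24 high against Lgr5 fit recovered 10 of 100 genes changed by 1 in log2. It recovered 94 of 100 changed by 2. Few genes were changed in those data, while 35.8% of genes were called in the arrays. The share of differences of about 1 that the arrays miss was therefore not tested.

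The members and lists were chosen with earlier results of these data known. Named genes are the 10 largest differences each way among called genes, passing over clone and predicted symbols, up to 6 called members of each list (up to 2 where none was called), all niche signals, and Cd24a, Dll1, Lgr5 and Atoh1. Other members of the lists that are named were chosen after their values were seen. Alternatives covered background correction, normalisation, the filter, further probes, slide, replicate number, the samples fitted and each array left out.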

Additional observations from a re-analysis of the deposited data

How the results depend on the processing

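The number of genes called between CD24 high and Lgr5 cells, 6266, was 5439 with slide as a term, 5464 with an offset of 16, 7422 without background subtraction, 7244 with the series matrix, 6274 with the sample channel alone, 6188 with no filter on dim probes, 5534 with a filter on all 7 arrays, 6037 with the mean of all probes, 5585 with the compared groups alone, and unchanged at 6266 with quantile scaling of average intensity, which leaves the ratios as they are. Leaving out 1 array at a time gave 4890 to 6356 calls, the lowest without CD24 high replicate 2, which leaves the comparison within 1 slide. Arrays of the same replicate number were not fitted as pairs, and Lgr5 had no number. Deviations of same-numbered arrays correlated at 0.30 between CD24 high and medium and at 0.48 between medium and low. Between CD24 high and low the correlation was -0.01. Some deviation was thus shared by replicate number, which the main fit leaves out, and the replicate block gave 6777 calls. For CD24 high against the mean of CD24 medium and low, 4343 calls became 6955 with the series matrix (2720 higher, 4235 lower, beside 2641 and 1702) and 2171 to 5115 with 1 array left out. The low values of that range were 2171 without CD24 high replicate 2, 2760 without CD24 high replicate 1, 2796 without CD24 medium replicate 2 and 2880 without CD24 medium replicate 1. It gave 4944 calls with the replicate block.

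Of 173 named genes that were called, 145 kept their call under every alternative run. The sample channel alone lost 21 and the series matrix 8, Cps1 and Atoh1 among the former. Without either CD24 low array Kitl was called, and without CD24 high replicate 1 Dll1 was. The erythroid median, -0.14, was 0.03 without CD24 high replicate 1. Notch2 turned to 0.90 with the filter on all 7 arrays, where another probe was taken. Gzma turned to -0.37 with the series matrix and -0.077 with the sample channel alone, and Cpb1 to -0.046 with the latter, and the cause was not tested. Genes dim in 1 group have ratios held near a floor, 485 of the higher calls with a dim Lgr5 spot and 327 of the lower calls with both CD24 high spots dim. In 167 of the higher calls both CD24 high spots were not well above background.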

Other observations

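Genes in this part were chosen after their values were seen. Angiogenin ribonucleases beside Ang4 were high in CD24 high cells. Ang read 4.68 and 4.62 in the CD24 high arrays and -2.18 in the Lgr5 array, a difference of 6.83 (SE 0.28, adjusted p = 4.3e-05) in limma's fit. Ang2 differed by 8.50 and Ang3 by 8.10, and these paralogs are near copies whose probes can share signal. Guca2b, uroguanylin, a peptide that regulates intestinal fluid, read 2.08 and 2.12 against -3.93, beside 1.75 and 2.00 against -3.96 for Guca2a, guanylin, of the Paneth granule list.

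In the BMP pathway, where Bmp4 was higher in CD24 high cells, Bambi, a decoy receptor that blocks BMP and TGF-beta signals, read 4.40 and 4.14 in the CD24 high arrays and -1.80 in the Lgr5 array, a difference of 6.07 (SE 0.26, adjusted p = 4.4e-05) in limma's fit. Id1, a classical target of BMP signals, read -3.23 and -3.14 in the CD24 high arrays and -0.73 in the Lgr5 array, a difference of -2.46 (SE 0.36, adjusted p = 0.0031). Id2, another, read -2.92 and -2.57 against -0.83, a difference of -1.92, with 1 CD24 high spot not well above background, while Id3 (-0.70 and -0.65 against -0.33), Smad6 (-0.89 and -0.43 against -1.10) and Smad7 (-1.55 and -1.01 against -2.36) did not pass the test.

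Some genes of ion and water transport read higher in the Lgr5 array. Cftr, the chloride channel, read -1.72 and -1.59 in the CD24 high arrays and 1.18 in the Lgr5 array, a difference of -2.83 (SE 0.27, adjusted p = 0.00073) in limma's fit, with 1 CD24 high spot not well above background. Aqp4, a water channel, read -1.62 and -1.02 against 0.86, not well above background in either CD24 high array. Kcne3, a partner subunit of Kcnq1, read 0.08 and -0.53 against 1.52. Otc, the urea cycle enzyme that follows Cps1, differed by -2.88, with 1 CD24 high spot not well above background. Myb, a factor of crypt progenitors, read 0.20 and -0.37 against 3.31.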
